A study of Mus musculus with 8 samples.

Results

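CpG dinucleotides that had few other CpGs around them and a methylation between the low and the high state were described in hepatocytes of mid-aged and young mice. A CpG on chromosomes 1 to 19 was taken as a member when every mouse had at least 5 reads there, and it had at most 4 other CpGs with a read within 100 bases (CpG-sparse), and a mean methylation over all 8 mice from 20 to 80%. This held for 69111 of the 897285 CpGs that had the reads in all mice (7.70%), beside 31860 CpG-sparse CpGs under 20% and 216200 over 80%. The members were chosen by their methylation, averaged over both ages, so their levels are given as a description. The hepatocytes were isolated by perfusion from the livers of 4 mid-aged (40 weeks) and 4 young (10 weeks) mice, all female C57Bl6/J with no treatment named in the labels beyond the perfusion, and each mouse gave 1 library of reduced representation bisulfite sequencing (RRBS). RRBS reads the ends of *Msp*I fragments, which start at CCGG, and gives for each CpG the percent of reads in which the cytosine was methylated. The comparison of the ages was made by the study to see which changes of methylation with age lie in hepatocytes. The perfused cells were enriched by centrifugation.

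In mammals, CpG-dense DNA such as the CpG islands at promoters is mostly unmethylated, while isolated CpGs are mostly methylated by maintenance of the mark at each cell division. CpG-sparse sites with an intermediate level are known from distal enhancers, where bound transcription factors go along with local loss of methylation, and from imprinted regions, where 1 parental allele is methylated. A percent over the reads of many cells cannot tell apart partial methylation in every cell, full methylation in some of the cells, and methylation of 1 allele.

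The members at which the ages differed most include the following, each shown as 30 bases of the forward strand of GRCm38.p6 (mm10, NCBI genome sequence) with the member CpG in capitals. The first 4 were lower and the last 4 higher in mid-aged mice, and they are shown because the comparisons of single CpGs below turn on them.
Dnajc22 (chr15:99105441-99105470): gtgagcagcgccctCGaggttctgccctga
Fasn (chr11:120820051-120820080): tcaatatactcaagCGactccggggccaga
Zbtb8a (chr4:129362868-129362897): ggatgttagtgagcCGgcctagagaccatt
Nfkbia (chr12:55490587-55490616): catttcaacaagagCGaaaccaggtcagga
2810004N23Rik (chr8:124861624-124861653): tagtaatacaattaCGctagtcctcacacc
Ttc39b (chr4:83284893-83284922): atacagcatactcaCGggtttacggcagct
Rassf3 (chr10:121434800-121434829): aagcaacctaactgCGcattctacacctct
Tns3 (chr11:8468796-8468825): tcccccttcaagttCGgaaaaacttcccgg
In *Dnajc22* a second CpG lies 6 bases before the member and in *Fasn* one lies 6 bases after it, while the *Zbtb8a* CpG sits in a CCGG with no other CpG that had a read within 100 bases.

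Reads over CpGs numbered 84639955 to 118395064 in the mid-aged libraries and 46321447 to 72710972 in the young ones. At the members the median depth was 25, 50, 52 and 50 reads in mid-aged mice 1 to 4 and 36, 32, 37 and 54 reads in young mice 1 to 4. Most of the 10 promoters of hepatocyte genes had no tested CpG. That of *Hnf4a* had a methylation of 9.48% (mid-aged) and 13.8% (young) at 1 CpG, with single mice from 0 to 25.0%. That of *Apoh* had 10.9% (mid-aged) and 10.1% (young) over 40 CpGs. The promoters of the leukocyte genes *Cd48* (3 CpGs) and *Tyrobp* (1 CpG), 2 of 8 markers, had 82.4 to 92.0% in mid-aged and 81.5 to 96.6% in young mice. That of the endothelial gene *Tie1* (1 of 6 markers, 2 CpGs) had 85.6% and 90.7%. For hepatic stellate cells 4 of 5 marker promoters had tested CpGs, at 2.48 to 40.7% in mid-aged and 1.84 to 42.7% in young mice, and for cholangiocytes 1 of 5 (*Cldn4*), at 68.9% and 75.2%.

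Members were spread unevenly over the band. Of all members, 37.3% had a mean from 70 to 80% and 20.6% from 60 to 70%, while 9.74%, 8.77% and 10.0% lay in the bands from 20, from 30 and from 40%. There was no gap at the limits. From 79 to 80% lay 3494 CpGs inside the band, against 3817 from 80 to 81% just outside it. From 20 to 21% lay 822 inside, against 823 from 19 to 20% outside. With 4 other CpGs within 100 bases there were 13900 members, and 10639 CpGs of the same levels had 5 other CpGs.

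An intermediate mean did not stand for the same level in every mouse. All 8 mice lay between 20 and 80% at 22803 members (33.0%). The range over the 8 mice had a median of 32.6 percentage points, was under 20 points at 10828 members (15.7%), and was over 80 points at 620. Part of this range is counting error. The median SD between mice was 8.13 percentage points in mid-aged mice, where the reads alone give 7.36, and 11.1 points in young mice, where they give 7.61. CpG-sparse CpGs over 80% had an SD of 3.86 points (reads alone, 3.71) in mid-aged and 5.07 points (3.87) in young mice. CpG-dense CpGs from 20 to 80% (10 or more CpGs within 100 bases) had 6.47 (5.25) and 10.9 points (7.34). The counting error thus differs between these classes, and so does the SD that comes from it. An SD from 4 mice is more often too low than too high, so the excess over the reads is understated.

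The spread also differed from mouse to mouse. Mid-aged mice 1 to 4 deviated from the mean of their 3 group mates by an SD of 14.2, 11.0, 11.3 and 11.7 points, and young mice 1 to 4 by 18.3, 17.9, 14.8 and 13.1 points. The reads alone give 11.8, 8.87, 8.75 and 9.06 points for mid-aged mice 1 to 4 and 10.1, 10.6, 9.96 and 8.74 points for young mice 1 to 4. Young mice 1 and 2 thus lay farthest above their counting error. Young mouse 4 deviated less than mid-aged mouse 1, which had the fewest reads at the members. No test of this difference was made, and whether it came from the animals, the cells or the libraries was not tested.

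**Figure D1:**
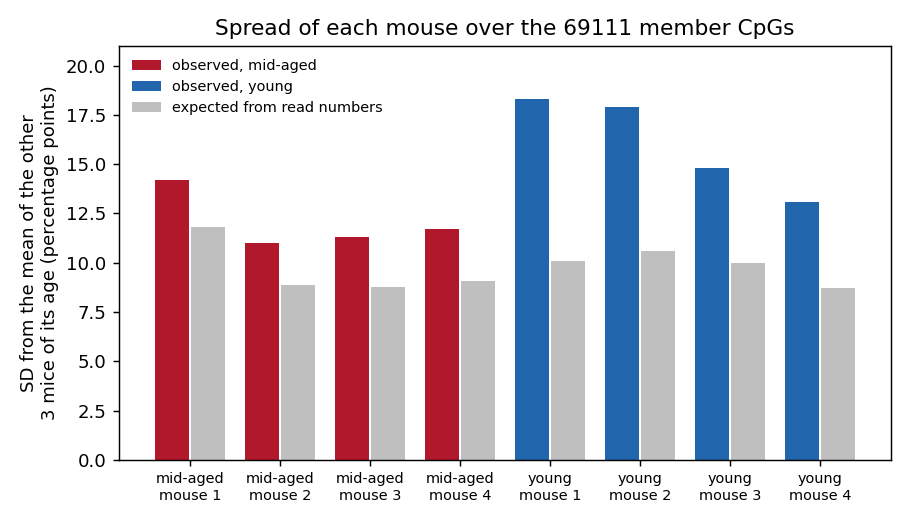
SD of each mouse from the mean of the other 3 mice of its age over the members (y axis, percentage points), as observed (red, mid-aged; blue, young) and as the number of reads alone gives it (grey). The observed bars stand between 11.0 and 14.2 points in mid-aged mice and between 13.1 and 18.3 points in young mice, each above its grey bar.

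Most members were read on 1 strand only (67.3%). At the 13238 members with at least 20 reads on each strand over all mice, the strands differed by a median of 5.78 percentage points, and 73.4% differed by less than 10 points. At 195 of them (1.47%) the strands differed by more than 50 points. This share was 0.0386% in CpG-sparse CpGs over 80% and 0.837% in CpG-dense CpGs from 20 to 80%. Strands so far apart give an intermediate mean where their depth is alike. The band thus favors such CpGs, and nothing is read from the share over 80%. Of the members called below, 102 lower and 22 higher ones had such depth on both strands, and 0 of them were among the 195.

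Members lay mainly in introns (30481, 44.1%) and between genes (24996, 36.2%), followed by promoters (7866, 11.4%; 1500 bases upstream to 500 downstream of a transcription start site), coding exons (3355, 4.85%), untranslated regions (1518, 2.20%) and exons of non-coding transcripts (895, 1.3%). Counted the other way, 15.3% of the CpG-sparse CpGs in coding exons were intermediate and 80.9% were over 80%, while in promoters 24.1% were intermediate, 35.1% under 20% and 40.8% over 80%. Introns (21.2% intermediate) and intergenic DNA (23.4%) lay between them. The median level of the members was 56.1% in promoters and 66.2% between genes.

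The share of intermediate CpGs was largest at some distance from CpG-dense DNA. Within 500 bases of a CpG-dense CpG, 54.7% of the CpG-sparse CpGs were under 20% and 21.7% were intermediate. From 500 to 1000 bases, the intermediate share was 31.6% and the low share 27.8%. It was 25.5% from 1 to 2 kb, 23.3% from 2 to 5 kb and 20.6% at 50 kb and more. The median level of the members was 47.4% in the nearest class, 54.3% in the next and 67.6% in the farthest. In all, 17.4% of the members lay within 2 kb of a CpG-dense CpG, against 8.54% of the CpG-sparse CpGs over 80% and 54.6% of those under 20%. Repeats and low-complexity DNA, as marked in the genome sequence, held 11.1% of the members and 16.8% of the CpG-sparse CpGs over 80%. These shares carry no test, since neighboring CpGs share fragments and reads.

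**Figure D2:**
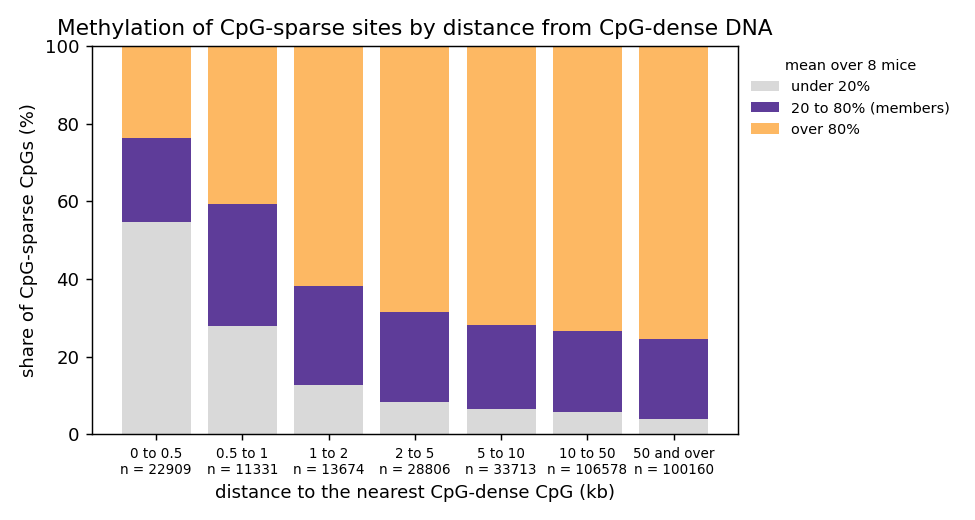
Share (y axis, %) of CpG-sparse CpGs with a mean under 20%, from 20 to 80% (the members) and over 80%, by distance to the nearest CpG-dense CpG (x axis, kb). The share from 20 to 80% is 21.7% in the nearest class, 31.6% from 0.5 to 1 kb and 20.6% at 50 kb and over.

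The letters beside the CpG differed between members and other CpG-sparse CpGs. Where the CpG had A or T on both sides, 30.9% were intermediate (12110 of 39132). With A or T on 1 side the share was 21.7%, and with C or G on both sides, CCGG left out, it was 14.3% (4842 of 33822). The *Msp*I site CCGG itself, at which 155701 of the CpG-sparse CpGs lay, had 21.2%. Among the single tetranucleotides, ACGT had 32.2% and GCGC 13.7% intermediate CpGs. The order was present in each mouse taken alone, where 31.0 to 33.5% of the CpGs between A or T and 15.3 to 17.8% of those between C or G had 20 to 80%. It was also present in promoters (27.9% and 20%), coding exons (22.1% and 9.13%), introns (29.9% and 13.7%) and intergenic DNA (35.8% and 14.3%), and at 1 to 4 other CpGs within 100 bases. With 0 other CpGs the share was 25.0% between A or T, 34.0% with A or T on 1 side and 20% between C or G. Median depth was 43 reads between A or T and 40 between C or G. Of the sequences shown above, that of *Dnajc22* has T and A beside the CpG, those of *Fasn*, *Nfkbia*, *2810004N23Rik*, *Ttc39b* and *Tns3* have A or T on 1 side, that of *Rassf3* has GCGC and that of *Zbtb8a* CCGG.

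Short letters known from liver transcription factors were counted within 100 bases of the CpG, on both strands. The forkhead core TGTTTAC, bound by FOXA factors that open liver enhancers, stood in 3.16% of the members, in 3.75% of those from 20 to 50%, in 3.30% of the CpG-sparse CpGs under 20%, in 1.97% of those over 80% and in 1.68% of all tested CpGs on chromosomes 1 to 19. The nuclear receptor motif AGGTCA stood in 15.1% of the members, 15.6% of the CpG-sparse CpGs under 20%, 11.6% of those over 80% and 9.66% of all tested CpGs. For AAAGTCC, of the kind bound by HNF4, the shares in the same order were 3.18%, 3.96%, 2.73% and 2.26%. TTGCGCA, a C/EBP core that itself holds a CpG, stood in 0.314%, 0.599%, 0.352% and 1.21%. None of these 4 contains another. They were chosen from 12 motifs that were counted. Of the others, GTTAAT (HNF1) stood in 5.11% of the members and 4.81% of the CpG-sparse CpGs over 80%. For TTGGCA (NFI) these shares were 11.3% and 10.0%, for TGACTCA (AP-1) 4.17% and 3.35%. For TTGCATC, a C/EBP core without a CpG, they were 1.88% and 1.90%. The median GC content of the same windows was 51.5% in the members, 50% in the CpG-sparse CpGs over 80% and 58.4% in all tested CpGs, and its part in these shares was not tested. A match of letters is a description and not a bound site.

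Members resembled the CpGs next to them. Of the next tested CpGs at 1 to 25 bases, 58.2% were intermediate, 34.7% over 80% and 7.09% under 20%, with a median gap in level of 13.7 percentage points. At 201 to 500 bases 37.3% were intermediate, and the median gap was 21.9 points. Across pairs of CpGs, which share reads and are not independent, the correlation of the levels was r = 0.663 at 1 to 25 bases (13079 pairs) and 0.403 at 201 to 500 bases (14354 pairs). The correlation of the differences between the ages was r = 0.459 and 0.133 over the same pairs. The correlation of the differences thus fell off faster with distance than that of the levels.

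As a whole the members differed little between the ages. Their mean was 59.0, 59.4, 59.4 and 59.4% in mid-aged mice 1 to 4 and 59.2, 59.4, 59.3 and 58.3% in young mice 1 to 4. This gave 59.3% ± 0.188 for mid-aged and 59.0% ± 0.495 for young mice (SD, n = 4 each), and the mice of the groups overlapped. The mean difference was 0.268 percentage points (mid-aged minus young), beside 0.330 over all tested CpGs of chromosomes 1 to 19, and it had the other sign with reads pooled over CpGs (-0.471 points) and for members with a mean from 30 to 70% (-0.104 points). Single members varied far more, with 90% of the differences between -17.3 and 16.5 points. A difference of at least 20 points was lower in mid-aged mice at 2381 members and higher at 1802.

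Each CpG was tested by a quasi-binomial logistic model of its reads. A call needed an adjusted p under 0.05 over all tested CpGs and a group difference of 5 percentage points or more, and neither group could have a variance of 0.05 or over between its mice (methylation as a fraction). Of the members 397 were called lower in mid-aged mice (0.574%), beside 0.102% of all tested CpGs, and 61 were called higher (0.0883%), beside 0.0615% of all tested CpGs (either way, 0.163% of all tested CpGs). A CpG that differs widely between the ages has an intermediate mean, so the rule for members favors such CpGs and nothing is read from these shares against the background. The mid-aged mice all lay below the young ones at 2301 members (3.33%; 1.24% of all tested CpGs) and above at 1807 (2.61%; 2.33% of all tested CpGs). At an unadjusted p under 0.05 there were 4676 lower and 4518 higher members, beside 34043 and 45184 of the 874644 tested CpGs of chromosomes 1 to 19. In CpG-dense CpGs from 20 to 80%, the calls ran the other way, with 57 lower and 311 higher of 12634, and in CpGs of intermediate density from 20 to 80% there were 305 lower and 64 higher of 30356. The difference between these classes was not tested.

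The number of calls depended on the mice. Without mid-aged mouse 1, 2, 3 or 4 the calls fell to 226, 134, 138 and 158 lower and to 30, 17, 23 and 18 higher members. Without young mouse 1 they rose to 620 lower and 125 higher members. Limma on M values, the log2 ratio of methylated to unmethylated fractions, called 0 lower and 0 higher members (2472 and 1681 at an unadjusted p under 0.05).

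Called losses had a median of -28.9 percentage points (33.2% in mid-aged and 66.9% in young mice) and lay in or within 5000 bases of 230 protein-coding genes. Called gains had a median of 24.4 points (65.9% in mid-aged and 38.1% in young mice) at 43 protein-coding genes. By location, 211 losses and 35 gains lay in introns (0.692% and 0.115% of the members there), and 96 and 6 between genes (0.384% and 0.0240%). Promoters held 36 and 12 (0.458% and 0.153%), and coding exons 35 and 7 (1.04% and 0.209%). Over all tested CpGs of chromosomes 1 to 19, the shares were 0.159% and 0.0481% in introns and 0.111% and 0.0113% between genes. They were 0.0354% and 0.0452% in promoters and 0.172% and 0.229% in coding exons. These shares were not tested. Of the losses 152 of 397, and of the gains 18 of 61, lay within 200 bases of another called member of the same direction.

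The 10 protein-coding genes with the largest loss at a called member (10 or more reads per mouse, no overlap between the groups) were led by *Dnajc22*, which encodes a DnaJ cochaperone. Its CpG downstream of the gene had 8.33, 5.56, 14.9 and 10.5% in mid-aged mice 1 to 4, against 72.4, 60.0, 90.0 and 45% in young mice 1 to 4 (-57.0 percentage points, adjusted p = 0.00591, quasi-binomial test). The CpG 6 bases away differed less. It had 79.2 to 94.7% in mid-aged mice and 93.1 to 100% in young mice and was not called. In coding exon 7 of *Fasn*, the gene of fatty acid synthase, the mid-aged mice had 36.0, 22.9, 35.3 and 35.4% and the young mice 96.2, 90.9, 82.6 and 83.3% (-55.9 points, adjusted p = 2.84e-04). Here the CpG 6 bases away moved with it, at 25.0 to 45.8% in mid-aged and 72.0 to 92.6% in young mice. In coding exon 5 of *Nfkbia*, which encodes the NF-kB inhibitor IkB alpha, the values were 9.95, 16.7, 15.1 and 16.4% in mid-aged mice, against 59.3, 68.1, 70.9 and 53.4% in young mice (-48.4 points, adjusted p = 5.97e-06). This CpG (chromosome 12, 55490601) had 186 to 256 reads in mid-aged and 59 to 185 reads in young mice. In intron 2 of *Zbtb8a*, a zinc finger and BTB domain gene, the mid-aged mice had 26.7, 26.9, 27.9 and 22.5% and the young mice 75.0, 78.8, 71.4 and 84.7% (-51.5 points, adjusted p = 3.05e-04). It had no tested CpG nearby, and the next one, 1241 bases away, had group means of 57.6% (mid-aged) and 61.1% (young).

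In intron 2 of *Col27a1*, a fibrillar collagen gene (chromosome 4, 63222059), the mid-aged mice had 44.4, 36.4, 33.9 and 34.9%, against 100, 100, 83.0 and 81.2% in young mice (-53.6 points, adjusted p = 3.19e-04, quasi-binomial test). In intron 12 of *Ctnnbl1*, the gene of a spliceosome-associated protein (chromosome 2, 157870364), the values were 20.5, 6.25, 4.65 and 10.9% in mid-aged mice, against 68.0, 72.0, 68.2 and 39.1% in young mice (-51.3 points, adjusted p = 0.0100). Young mouse 4 was the nearest to the mid-aged mice there. The other 4 genes were *Zfp809*, whose product silences retroviral elements in the mouse (intron 1; chromosome 9, 22226828), *Itpr1*, a calcium channel of the endoplasmic reticulum (intron 44; chromosome 6, 108458809), *Nceh1*, a neutral cholesterol ester hydrolase (past the end of the transcript used for places and in an intron of another; chromosome 3, 27279714), and *Arhgap26* (intron 22; chromosome 18, 39363387). At *Zfp809* the mid-aged mice had 11.8, 35, 24.1 and 43.5%, against 100, 88.5, 76.0 and 70.6% in young mice, and at *Itpr1* they had 7.69, 21.2, 27.6 and 11.5%, against 64.3, 80, 71.4 and 65.4%. Their differences were -55.2, -53.3, -47.7 and -46.7 points (adjusted p = 0.0119, 0.00962, 0.0294 and 0.00332). The calls at *Fasn*, *Col27a1*, *Zbtb8a* and *Nfkbia* held without any 1 mouse. Leaving out 1 mid-aged mouse ended the call at *Dnajc22* (mouse 2 or 4, adjusted p up to 0.0578), *Zfp809* (2 or 3, 0.125), *Itpr1* (4, 0.0642), *Ctnnbl1* (2, 3 or 4, 0.0974), *Arhgap26* (2 or 4, 0.0540) and *Nceh1* (any of them or young mouse 4, 0.181).

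Among the gains of protein-coding genes, the CpG of *2810004N23Rik*, an uncharacterized gene, stood apart. It had 100, 98.8, 93.3 and 97.3% in mid-aged mice, against 30.4, 0, 0 and 0% in young mice (89.8 points, adjusted p = 5.42e-05, quasi-binomial test). From percent and coverage, methylation at this CpG and a base difference between the animals cannot be told apart. The CpG 16 bases away had 77.6 to 96.3% in mid-aged and 77.1 to 91.2% in young mice and was not called. In intron 2 of *Ttc39b*, whose product limits the liver X receptor in mouse liver, the mid-aged mice had 77.8, 62.8, 73.9 and 70.1%, against 17.5, 17.3, 30.6 and 31.0% in young mice (47.0 points, adjusted p = 4.24e-04). In intron 1 of *Rassf3*, a gene of the Ras association domain family, the values were 93.8, 86.5, 74.0 and 98.3% in mid-aged mice, against 28.6, 42.3, 41.7 and 55.1% in young mice (46.2 points, adjusted p = 0.00884). In intron 20 of *Tns3*, which encodes the focal adhesion protein tensin 3, the mid-aged mice had 53.2, 61.1, 59.4 and 54.4% and the young mice 19.5, 21.2, 31.8 and 32.3% (30.8 points, adjusted p = 2.66e-04), with 133 to 436 reads per mouse. This CpG lay 69 bases from CpG-dense DNA. The CpG in intron 2 of *Gm28230*, a protein-coding gene model, lay at 74729458 of chromosome 2. It had 49.3, 68.5, 61.6 and 61.1% in mid-aged mice, against 29.2, 25.2, 26.8 and 25.0% in young mice (33.6 points, adjusted p = 1.24e-04).

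The other 5 gains were in coding exon 15 of *Prss36*, a serine protease gene (chromosome 7, 127932958; 42.5 points, adjusted p = 0.0111, quasi-binomial test), in coding exon 3 of *Tent5a*, the gene of a nucleotidyltransferase (chromosome 9, 85324688; 31.2 points, 0.0308), and in introns of *Cdkal1*, which modifies transfer RNA (34.7 points, 0.0360), *Kremen1*, a receptor of the Wnt antagonist Dickkopf (34.4 points, 0.0235), and *Lxn*, a carboxypeptidase inhibitor (31.3 points, 0.0238). At *Cdkal1* (chromosome 13, 29769881) the mid-aged mice had 37.1, 62.9, 42.6 and 68.5%, and the young mice, which were close together, 18.2, 17.6, 17.2 and 19.0%. At *Prss36* the mid-aged mice had 64.3, 65.9, 66.7 and 50%, against 14.3, 26.7, 18.5 and 17.1% in young mice. At *Tent5a* the values were 43.2, 39.8, 58.8 and 56.1% in mid-aged mice, against 4.08, 28.3, 19.8 and 21.1% in young mice. *Kremen1* (chromosome 11, 5196361) and *Lxn* (chromosome 3, 67462781) had 61.5 to 83.7% and 68.9 to 88.2% in mid-aged mice, against 23.7 to 54.1% and 44.2 to 51.9% in young mice. The calls at *2810004N23Rik*, *Ttc39b*, *Gm28230* and *Tns3* held without any 1 mouse. Those at *Rassf3* (without mid-aged mouse 1, 2 or 4, adjusted p up to 0.0831), *Prss36* (mid-aged 2 or 3, 0.0974), *Cdkal1* (mid-aged 2, 3 or 4 or young 3 or 4, 0.218), *Kremen1* (mid-aged 1, 2 or 4 or young 3, 0.225), *Lxn* (the same 4 mice, 0.181) and *Tent5a* (mid-aged 1, 3 or 4 or young 3, 0.234) did not. Limma on M values called none of the 20 CpGs of losses and gains.

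**Figure D3:**
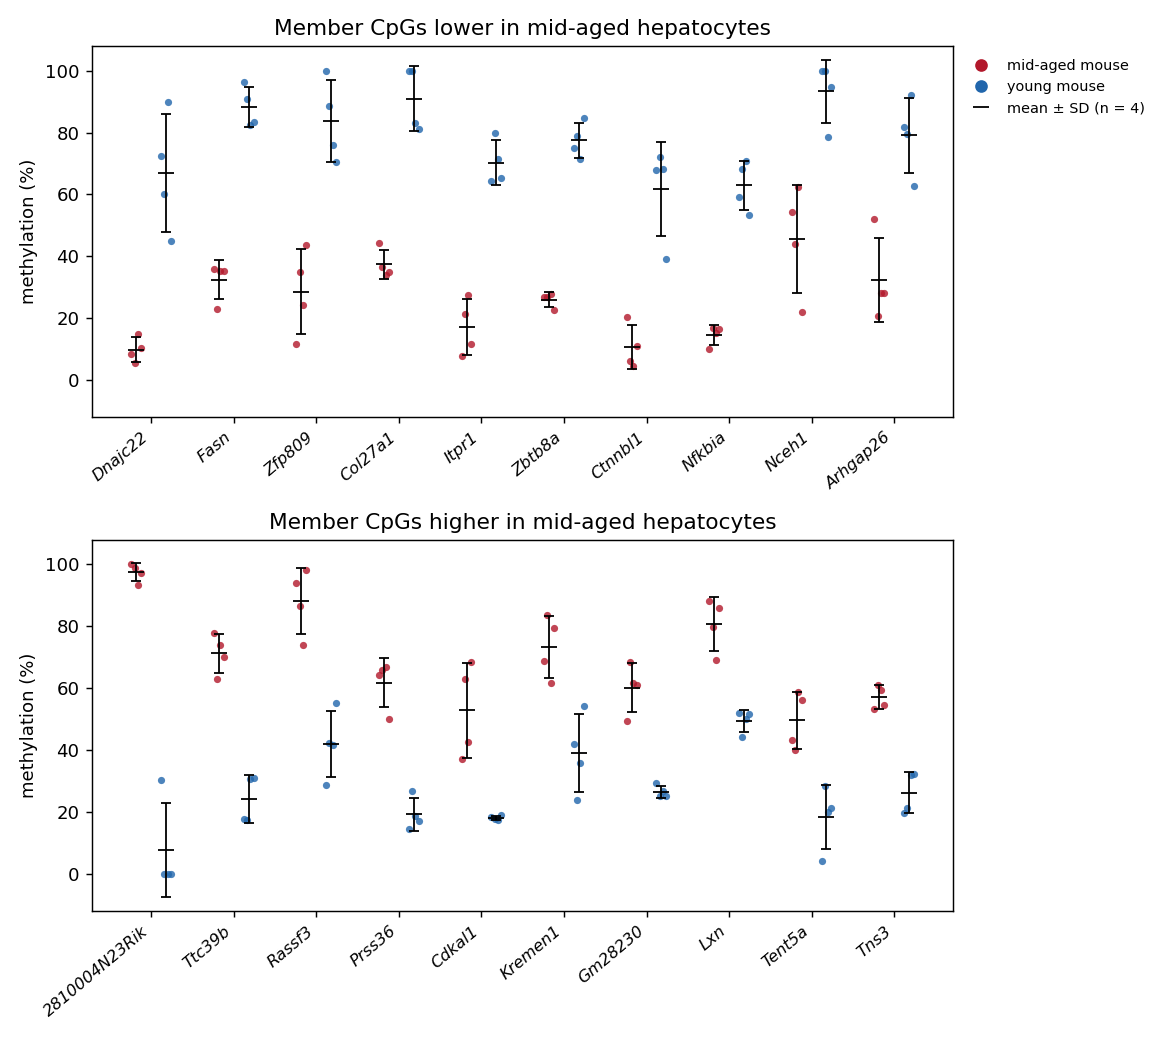
Methylation (y axis, %) of the member CpGs with the largest loss (top) and gain (bottom) in mid-aged (red, left) and young mice (blue, right), and the group means with their SD (n = 4). The CpGs were chosen among those without overlap between the groups, and the widest gap is at 2810004N23Rik, with 93.3 to 100% in mid-aged and 0 to 30.4% in young mice.

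The nearest tested CpG lay within 50 bases of 9 of the 10 CpGs with a loss and 8 of the 10 with a gain, and its mean differed in the same direction at all 9 and all 8. It was itself called at 5 of the 9 and 2 of the 8. At *Zfp809*, *Col27a1*, *Nceh1* and *Arhgap26* it differed by -44.6, -42.0, -43.3 and -40.7 percentage points, close to the member itself. At *Nfkbia* (30 bases away) it had 9.68% in mid-aged and 26.9% in young mice, and at *Prss36* (27 bases away) 52.5% and 40.5%. The members were chosen for the largest differences, and CpGs this near can share reads, so the shared direction is not independent support. A smaller difference at the next CpG does not show where a change ends, and this was not tested.

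Among protein-coding genes, the most called members were found at *Col27a1* and *Fasn*, 5 each and all lower, followed by *Eif4e3*, which encodes a cap-binding translation factor, with 4 lower, and *Ttc39b* with 4 higher. The 4 CpGs of *Eif4e3* differed by -12.2 to -27.9 percentage points, with 78 or more reads per mouse, and the largest loss, at 99665699 of chromosome 6, had 22.1% ± 3.21 in mid-aged mice and 49.9% ± 4.71 in young mice (SD, n = 4 each; adjusted p = 1.94e-05, quasi-binomial test). The 4 CpGs of *Ttc39b*, from 83284907 to 83285066 of chromosome 4, differed by 20.1 to 47.0 points. These 4 genes were chosen after the counts were seen, and neighboring CpGs can share reads.

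Runs of at least 3 tested CpGs with at most 200 bases between neighbors, all of them members, gave a second readout with more reads. There were 1796 such runs with 6472 members (9.36% of the members) among 97096 runs. Of them 67 were called lower in mid-aged mice (3.73%), beside 0.690% of all runs, and 10 higher (0.557%), beside 0.385% of all runs, and here too nothing is read from the background because of the rule for members. The median difference was 0.301 percentage points, beside 0.252 over all runs. In 1483 of the 1796 every mouse lay from 20 to 80%, and 439 had an SD over the 8 mice under 5 points. Limma on M values of the summed reads called 2 lower and 0 higher (153 and 79 at an unadjusted p under 0.05). Without young mice 1 and 2, whose spread was the largest, 37 lower and 6 higher runs were called.

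Of the runs with a loss, that of *Fasn* (5 CpGs, 120820038 to 120820276 of chromosome 11, at coding exon 7) had 43.9, 30.5, 40.5 and 43.3% in mid-aged mice 1 to 4, against 75.7, 84.8, 83.8 and 78.6% in young mice 1 to 4 (-41.2 percentage points, adjusted p = 5.19e-08, quasi-binomial test). All 5 of its CpGs were called by themselves. In coding exon 2 of *Slc25a44*, the mitochondrial carrier of branched-chain amino acids, 3 CpGs had 47.8, 35.4, 28.8 and 35.4% in mid-aged mice, against 70.9, 100, 80 and 75.2% in young mice (-44.7 points, adjusted p = 4.51e-04). The largest loss outside genes was an 8-base run of 3 CpGs on chromosome 19 (21012518 to 21012525). It had 20.8, 22.8, 23.3 and 23.2% in mid-aged mice, which were close together, against 65.3, 73.3, 61.8 and 41.9% in young mice (-38.1 points, adjusted p = 1.23e-04). The other 3 runs, at *Nceh1*, between genes on chromosome 15 and at *Anks1*, an adaptor protein gene, had -43.0, -37.3 and -35.8 points (adjusted p = 7.55e-04, 6.65e-04 and 0.00352). All 6 held without any 1 mouse.

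Of the runs with a gain, that of *Rassf3* in intron 1 (4 CpGs) had 60.8, 57.8, 47.0 and 58.4% in mid-aged mice, against 22.0, 33.0, 23.4 and 34.5% in young mice (27.7 percentage points, adjusted p = 0.00123, quasi-binomial test). In intron 4 of *Arl3*, the gene of a small GTPase of the cilium, 6 CpGs had 65.9, 64.1, 66.1 and 64.6% in mid-aged mice, against 55.0, 50.3, 32.0 and 38.8% in young mice (21.2 points, adjusted p = 0.00141), and 0 of them was called alone. In intron 11 of *Stxbp3*, which encodes a syntaxin-binding protein of vesicle traffic, 3 CpGs had 66.9, 68.0, 73.9 and 75.8% in mid-aged mice, against 50, 47.0, 44.4 and 43.0% in young mice (25.0 points, adjusted p = 0.00151). *Kremen1* had 24.8 points (adjusted p = 0.00107). The intergenic run on chromosome 14 (26.1 points, adjusted p = 0.0351) and that of the kinase gene *Map3k13* (17.2 points, 0.0339) lost the call without mid-aged mouse 2 or 4 or young mouse 1 or 3, the first also without mid-aged mouse 1 or young mouse 4 and the second without mid-aged mouse 3 (adjusted p up to 0.185 and 0.128). The other 4 held without any 1 mouse.

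Other runs kept 1 intermediate level in all 8 mice. In intron 1 of *Epha8*, an ephrin receptor gene, 5 CpGs had 37.0, 36.9, 35.6 and 36.5% in mid-aged mice and 38.3, 37.4, 36.5 and 35.7% in young mice, with 441 to 1587 reads per mouse. In intron 1 of *Panx2*, a pannexin gene, 3 CpGs had 26.8 to 29.6% in mid-aged and 26.2 to 30.1% in young mice, and in the 3' untranslated region of *Shank1*, a postsynaptic scaffold gene, 5 CpGs had 36.3 to 37.7% and 35.2 to 41.3%. The others were a run upstream of *Lhx4*, a LIM homeobox gene (28.0 to 32.2% in mid-aged and 29.4 to 32.8% in young mice), *Rtn4rl2*, a Nogo receptor family gene (37.8 to 44.1% and 39.9 to 43.3%), and a run downstream of *Wdr93*, a WD repeat gene, at 52.7 to 54.9% and 51.7 to 57.8%. The SD over the 8 mice was 0.894 to 2.11 points in these 6 runs, which were chosen for it among runs with at least 10 reads per CpG and mouse, so no test was made.

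**Figure D4:**
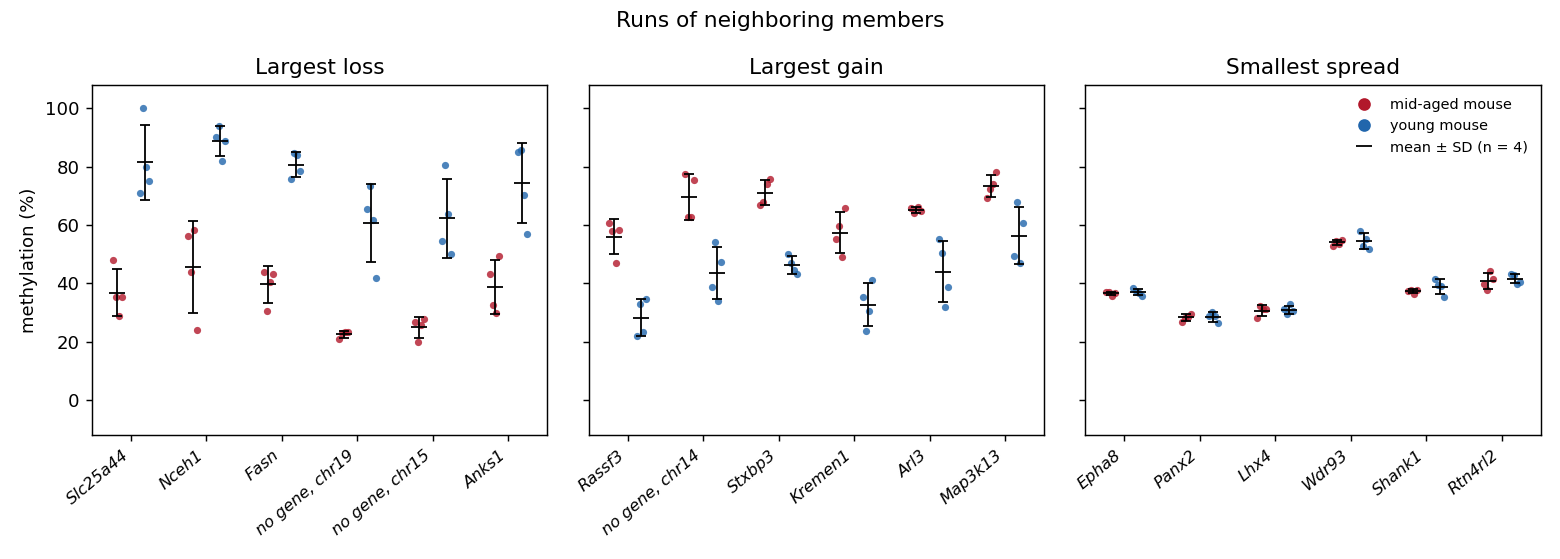
Methylation (y axis, %) of runs of neighboring members in mid-aged (red, left) and young mice (blue, right), and the group means with their SD (n = 4), for the called runs with the largest loss and gain and the runs with the smallest SD over all mice. The Fasn run lies at 30.5 to 43.9% in mid-aged and 75.7 to 84.8% in young mice, while all 8 mice lie between 35.6 and 38.3% at Epha8.

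Members in or within 5000 bases of the genes of 15 lists were counted. The list of fatty acid and triglyceride synthesis held 120 members in 24 genes, of which 8 were called lower and 0 higher, beside 0.574% and 0.0883% of all members and 0.102% and 0.0615% of all tested CpGs. They lay at 4 genes, *Fasn* (5 CpGs), *Scd1*, the stearoyl-CoA desaturase, *Elovl5*, an elongase of polyunsaturated fatty acids, and *Mlxipl*, which encodes ChREBP. In coding exon 6 of *Scd1* (chromosome 19, 44397939), the mid-aged mice had 43.6, 35.8, 41.0 and 44.2%, against 75.6, 75.0, 75.6 and 64.2% in young mice (-31.4 percentage points, adjusted p = 0.00183, quasi-binomial test), and this call held without any 1 mouse. In intron 1 of *Elovl5* (chromosome 9, 77925829), the values were 41.5, 52.7, 51.8 and 55.8% in mid-aged mice, against 68.0, 84.4, 83.1 and 87.8% in young mice (-30.4 points, adjusted p = 0.0158), a call that was lost without any 1 mid-aged mouse or young mouse 4 (adjusted p up to 0.112). Upstream of *Mlxipl* (chromosome 5, 135093590), named for its call although outside the naming rule, the CpG had 74.5% ± 7.85 in mid-aged mice and 84.3% ± 2.31 in young mice (SD, n = 4 each; adjusted p = 0.00984), and the mice overlapped. Over the 120 members the median difference was -8.11 points, beside 0.641 over all members, and 67.5% were lower. The median was below 0 in 16 of the 24 genes, and no gene held more than 12.5% of the members of the list (*Acacb*, 15).

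In the other 14 lists the quasi-binomial test and limma on M values called 0 members, and they are given by their values. Counts at an unadjusted p under 0.05 (quasi-binomial test) stand beside 4676 lower and 4518 higher of all 69111 members. Over all 874644 tested CpGs of chromosomes 1 to 19 they were 34043 and 45184. No list was tested against these. For alcohol and xenobiotic metabolism (39 members, 13 genes) the median difference was -9.83 percentage points, 13 members were lower and 2 higher at an unadjusted p under 0.05, and the mean of the members was 41.5, 45.0, 44.6 and 46.2% in mid-aged mice 1 to 4 and 54.4, 52.9, 51.9 and 53.1% in young mice 1 to 4. For amino acid metabolism and the urea cycle (87 members, 16 genes) the median was -4.30 points, with 44.7 to 46.4% in mid-aged and 48.2 to 56.2% in young mice, and *Ass1*, the argininosuccinate synthase gene, held 30 of these members. At an unadjusted p under 0.05 there were 20 lower and 5 higher members in this list, beside 40 and 7 in fatty acid and triglyceride synthesis. For hepatocyte transcription factors (87 members) it was -2.63 points, with 48.1 to 49.5% in mid-aged and 50.6 to 53.3% in young mice, and 7 lower and 7 higher members at that level. The means of mid-aged and young mice did not overlap in these 3 lists or in fatty acid and triglyceride synthesis (49.9 to 51.2% and 55.8 to 61.2%), and the lists share genes and reads. Secreted hepatocyte proteins (54 members) had a median of -4.83 points, genes of periportal hepatocytes (79) -3.64, fatty acid oxidation and ketone bodies (51) -1.04, cholesterol and bile acids (50) -1.18 and glucose and glycogen metabolism (54) -1.0 points, and their mice overlapped. Unadjusted, these 5 lists had 11, 19, 11, 7 and 6 lower and 4, 4, 2, 2 and 2 higher members.

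The other 6 lists had medians nearer to that of all members. Genes of pericentral hepatocytes (57 members) had 1.82 percentage points and imprinted genes and control regions (141 members) 1.40, where the mean was 56.3 to 58.2% in mid-aged and 55.3 to 58.3% in young mice. Genes of Kupffer cells and leukocytes (68 members) had -0.367, of sinusoidal endothelial cells (96) 1.87, of hepatic stellate cells (71) 0.0672 and of cholangiocytes (52) 1.26 points. Unadjusted, these 6 lists had 4, 6, 5, 4, 0 and 3 lower and 4, 6, 7, 9, 1 and 5 higher members. Over all 69111 members there were 4676 and 4518. At the stellate cell genes all 8 mice had means between 48.1 and 48.9%.

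**Figure D5:**
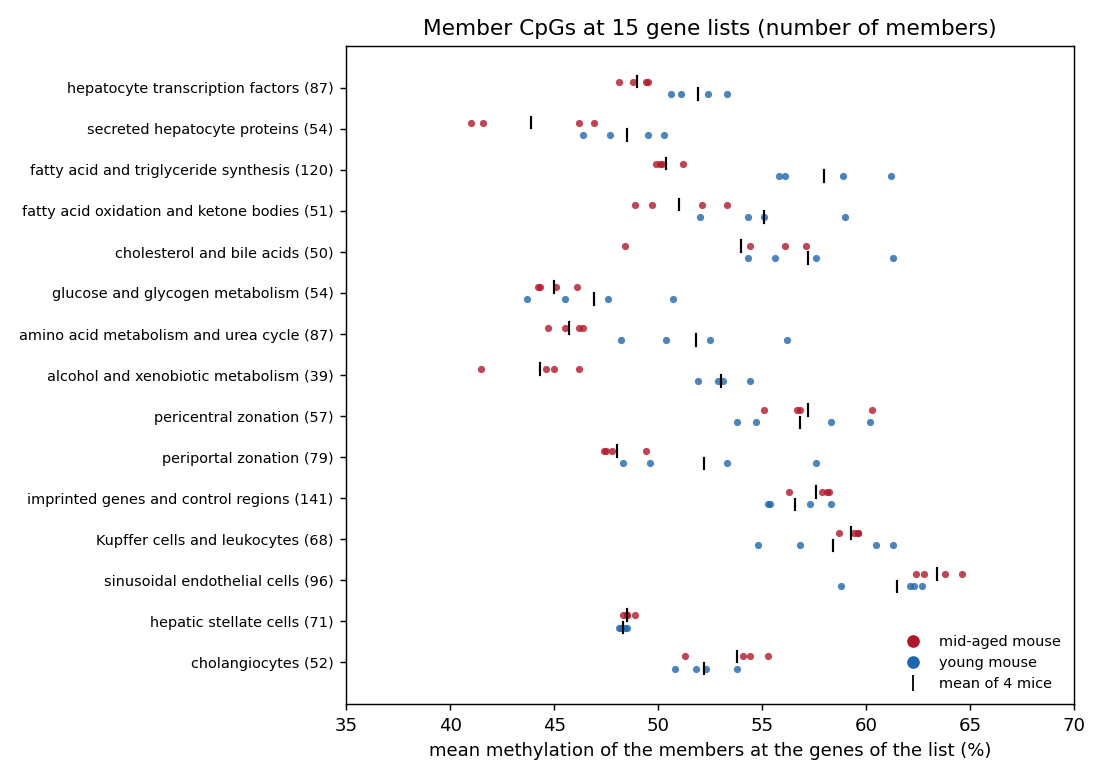
Mean methylation (x axis, %) of the members at the genes of 15 lists in each mid-aged (red, upper) and young mouse (blue, lower), with the mean of each group as a bar and the number of members in brackets. In fatty acid and triglyceride synthesis the mid-aged mice lie at 49.9 to 51.2% and the young mice at 55.8 to 61.2%, and at hepatic stellate cell genes all mice lie between 48.1 and 48.9%.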

How the data were processed

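The authors deposited, per strand of each mm10 CpG, its methylated reads as a percent and its coverage as a read count. These come from the pipeline of the DEEP project, with no normalization. Tools in the submitters' processing notes are FastQC, Picard 1.115, SAMtools 1.3, BWA 0.6.2 and Trim Galore 0.4.2. The methylation caller they used was not given in the sources used here. Percent times coverage, rounded, gave the methylated reads, and both strands were summed. The groups follow the ages in the labels. One item of the marker check is not reported here. PCR copies carry no molecular identifiers, so the counting errors cover reads only. Members were annotated with GENCODE vM21 on GRCm38.p6 (places along the transcript with the longest coding sequence) and read from the genome with pysam 0.24.0.

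The quasi-binomial model (Python 3.11.15, numpy 2.4.6, scipy 1.17.1) had 1 coefficient for age and an F test with a Pearson dispersion moderated by limma 3.58.1 in R 4.3.3 (CpGs with a dispersion of 0 left out, 11.44 prior degrees of freedom) and not below 1, with Benjamini-Hochberg adjustment over the 897285 CpGs or 97096 runs, which were cut at 500 bases. The model was also run on simulated counts with no added spread or the same added spread in every mouse. Spread differed between the mice here, so nothing is read from that run. Named were, of called members whose groups did not overlap and whose mice all had 10 or more reads, the 10 protein-coding genes with the largest loss and the 10 with the largest gain, the 6 runs each with the largest loss, gain and smallest spread, and up to 3 genes per list with a called member. The members, lists and rules were chosen with earlier results of these data known. Alternatives were limma on M values (offset 0.01), a minimum of 10 or 3 reads, no limits on difference and variance, a replicate block, each mouse left out, reads summed within 50 bases, density from the genome sequence and a band from 30 to 70%. No 2 libraries shared more than 0.239% of the counts at the members.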

Additional observations from a re-analysis of the deposited data

Results flagged for a closer look

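In groups of 4 mice, a mouse was singled out where its gap to the nearest other mouse exceeded Dixon's limit for the share of the range of its group. This was the case in 8 of 114 groups (7.02%), and chance alone singles out about 1 in 20. At the *Fasn* CpG mid-aged mouse 2 had 22.9%, against 35.3 to 36.0% in the other mid-aged mice, and at the *Prss36* CpG mid-aged mouse 4 had 50%, against 64.3 to 66.7%. At the *Ctnnbl1* CpG young mouse 4 had 39.1% (46 reads), against 68.0 to 72.0% in the other young mice, and at the *Scd1* CpG the same mouse had 64.2% (151 reads), against 75.0 to 75.6%. At the *2810004N23Rik* CpG young mouse 1 had 30.4% (23 reads), against 0% in the other young mice. The mean over all members was 59.0% in mid-aged mouse 1, which had the lowest median depth at the members, against 59.4% in each of the other mid-aged mice. The mean of the members at imprinted genes was 56.3% in the same mouse, against 57.9 to 58.2%, and that at genes of sinusoidal endothelial cells was 58.8% in young mouse 2, against 62.1 to 62.7%.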

How the results depend on the processing

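Called members (397 lower, 61 higher) stayed within 1.5 times of these counts with at least 10 or at least 3 reads per mouse and with no limits on difference and variance. Limma on M values and the fit with the replicate number as a block each called 0 lower and 0 higher, with 2472 and 1681 (limma) and 2616 and 2061 (block) at an unadjusted p under 0.05. With reads summed over all tested CpGs within 50 bases, 892 lower and 167 higher were called, of which 360 and 56 were among the 397 and 61. Leaving out 1 mouse gave 134 to 620 lower and 17 to 125 higher members. Without young mice 1 and 2 together, chosen after seeing the data, 518 lower and 120 higher members were called. The deviations of mice with the same number had correlations of r = -0.00633 to 0.00846 over the members. Counting error is part of these deviations, so they do not tell whether the numbers pair the mice. For runs (67 lower, 10 higher), limma called 2 lower and 0 higher, the block 53 and 7, leaving out 1 mouse 53 to 63 and 7 to 11, and leaving out young mice 1 and 2 together 37 and 6. The number of members was 36605 with a band from 30 to 70%, and the mean difference over all 69111 members was -0.471 percentage points with reads pooled. It was 0.0248 to 0.385 points without any 1 mouse. The 22 named CpGs and 12 called runs kept their direction under every alternative run. The groups did not overlap at any of them, so leaving out mice could not reverse it. Limma, the block and the other limits use the same group means. Only summing the reads could have changed the direction of a CpG. Of the CpGs 0 kept the call under limma and 0 under the block, and 21 kept it with reads summed. The causes were not tested. At the members, counting alone gives an SD between mice of 7.36 points in mid-aged and 7.61 in young mice.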

Other observations

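Exactly 3 called members were held by 16 protein-coding genes, *Nceh1* and *Arhgap26* among them, and in all 16 the 3 were lower in mid-aged mice. They were found by this count, after the values were seen. Of all called members 397 were lower and 61 higher, so genes with lower ones only are the common case. The called CpGs of 1 gene can share reads and are not independent. Those of *Pgpep1* lie from 70645900 to 70645912 of chromosome 8. Others of the 16 are *Usf2*, a bHLH factor that binds E-boxes (-23.6 to -44.7 percentage points), *Plk3*, a polo-like kinase gene (-30.5 to -36.8), *Efna1*, an ephrin ligand gene (-25.1 to -32.7), *Kalrn* (-30.2 to -41.8), *Dnmbp* (-28.0 to -39.0), *Arrdc2*, an arrestin domain gene (-23.8 to -41.5), *Erp27*, a gene of the endoplasmic reticulum (-17.9 to -33.3), and *Pgpep1*, a peptidase gene (-28.0 to -42.9). Of the 43 protein-coding genes with 2 called members, 34 had both lower, 6 both higher and 3 one of each.

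At the *2810004N23Rik* CpG the reads per strand also differed between the ages. The reverse strand had 41 to 65 reads in each mid-aged mouse with 97.2% methylated, and 23 to 39 reads in each young mouse with 5.65% methylated. The forward strand had 2 to 20 reads in each mid-aged mouse and 0 reads in all 4 young mice, so the low level in young mice rests on 1 strand. The cause was not tested.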
